A study of Mus musculus with 3 samples.

Results

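The gap junction and pannexin genes followed here are 6 connexin genes, Gjd2, Gjc1, Gja1, Gjb2, Gjb6 and Gjc3, and 2 pannexin genes, Panx1 and Panx2. They were chosen by symbol, and all 8 were found among the 32531 gene symbols of the count tables. Gjd2 and Gjc1 were taken as connexins of neurons, and Gja1, Gjb2, Gjb6 and Gjc3 as connexins of glia.

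The data are 3 libraries of ribosome-bound RNA from whole cerebral cortex of adult mice of the genotype Htr3a-Cre (NO176)::Rosa26-LSL-EGFP/Rpl10a. In this cross the Cre driver removes a stop cassette at Rosa26, and the ribosomal protein Rpl10a is then made as a fusion with EGFP. Polysomes carrying the fusion were captured with antibodies against EGFP, an assay called translating ribosome affinity purification (TRAP), whose stated aim here is to profile cortical interneurons. The 3 libraries form a single immunopurified group, and all of them carry both the driver and the reporter. Removal of the stop cassette is permanent, so a cell that once made Cre keeps the tag whether or not it still expresses the driver. No unpurified cortex RNA was analysed here, so a level below describes the captured RNA and not an enrichment over the tissue. Whether replicates 1, 2 and 3 stand for different mice is not stated in the labels. The p-values therefore rest on the spread among 3 libraries, which may be technical. In the limma fits that spread is moderated by pooling over genes, unless stated otherwise.

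Connexins are membrane proteins that assemble into hemichannels, and hemichannels of apposed cells dock to form gap junctions, which pass ions and small molecules. In the cortex, Gjd2 (Cx36) forms the electrical synapses that couple interneurons, whereas gap junctions between astrocytes are built mainly from Gja1 (Cx43) and Gjb6 (Cx30). Pannexins are related to connexins in membrane topology but not in sequence, and Panx1 forms large-pore channels that release ATP.

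The docking face of a connexin is built by its extracellular loops, which are held by disulphide bonds. The cysteines that form these bonds stand at fixed spacing in each loop. To show what the 6 connexins share and the pannexins lack, the coding stretch of the first loop is given below from the GENCODE M21 transcripts on GRCm38, 5′ to 3′ on the coding strand, with the cysteine codons in capitals.
Gjd2: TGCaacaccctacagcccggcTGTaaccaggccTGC
Gjc1: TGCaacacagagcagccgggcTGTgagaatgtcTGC
Gja1: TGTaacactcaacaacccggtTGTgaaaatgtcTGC
Gjb2: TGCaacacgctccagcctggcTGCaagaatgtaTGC
Gjb6: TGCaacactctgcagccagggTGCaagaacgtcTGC
Gjc3: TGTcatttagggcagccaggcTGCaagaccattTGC
These stretches lie in coding exons at chr2:114011797-114011832 (minus strand) for Gjd2, chr11:102800984-102801019 (minus) for Gjc1, chr10:56387706-56387741 (plus) for Gja1, chr14:57100558-57100593 (minus) for Gjb2, chr14:57124611-57124646 (minus) for Gjb6 and chr5:137957797-137957832 (minus) for Gjc3. The pattern searched was a cysteine codon (TGT or TGC), 6 codons, a cysteine codon, 3 codons and a cysteine codon, read in frame on the coding strand only. It occurred once in each of the 6 connexins and in neither pannexin. Of 21608 mouse coding sequences, 451 (2.09%) held it. The spacing of the second loop, with 4 and then 5 codons between the cysteine codons, was also present once in each of the 6 connexins and absent from both pannexins. Both patterns in this order were found in 128 coding sequences (0.592%), and 18 of these were genes with a connexin symbol.

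Within the first stretch, Gjb2 and Gjb6 were the most alike pair, with 30 of 36 bases in common. The neuronal genes Gjd2 and Gjc1 shared 26 of 36 bases. Gjc3 stood farthest off, with 18 of 36 bases in common with both Gja1 and Gjd2. Its cysteine stretch covered codons 64 to 75 counted from the start codon, against codons 53 to 64 in Gjc1, Gjb2 and Gjb6, 54 to 65 in Gja1 and 55 to 66 in Gjd2.

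In the annotation, Gjd2 (ENSMUSG00000068615.4) spans chr2:114009601-114013619 with 2 coding exons, and 1.98% of its exon length is overlapped by another gene. Gjc1 lies at chr11:102799579-102819700 and Gja1 at chr10:56377330-56402513, each with its protein in 1 coding exon. Gjb2 (chr14:57098600-57104702) and Gjb6 (chr14:57123303-57133611) are neighbours on the same strand and also have 1 coding exon each. Gjc3 (chr5:137953461-137963098) has 2 coding exons, Panx1 (chr9:15002128-15045478) 5 and Panx2 (chr15:89059734-89073567) 3. None of the exons of these 7 genes is overlapped by another annotated gene.

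Gene counts summed to between 13951332 and 14461053 per library. Marker lists were used to describe the captured RNA, and without unpurified cortex RNA they do not test the capture. Interneuron markers were abundant, with Sst at 8259 ± 552, Vip at 1043 ± 169 and Htr3a itself at 603 ± 46.2 TPM (mean ± SD, n = 3), a unit of transcript abundance that divides each count by the gene's merged exon length and scales every library to the same total. Markers of excitatory neurons (Slc17a7, 196 ± 56.2 TPM) and of glia (Cnp, 103 ± 30.2 TPM) were also present. In replicates 1, 2 and 3 the 9 GABAergic markers summed to 4319, 4204 and 3966 TPM. The 12 excitatory markers, led by Nrgn, summed to 991, 1071 and 1230 TPM. The sums were 2574, 2139 and 2074 TPM for 11 astrocyte markers and 443, 307 and 260 TPM for 11 oligodendrocyte markers. By median the lists ranked otherwise, with 131.6 ± 5.59 TPM for GABAergic and 74.2 ± 1.92 TPM for excitatory markers (mean ± SD, n = 3). The medians of the astrocyte and oligodendrocyte markers were 18.2 ± 1.83 and 14.1 ± 7.62 TPM. Each level therefore belongs to the captured RNA as a whole, and fewer cells of a type and less RNA per cell cannot be told apart.

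Gjd2 was the most abundant connexin in TPM, and only Panx2 among the 8 genes stood above it. It had 213, 268 and 282 counts in replicates 1, 2 and 3, or 26.9, 33.1 and 34.0 TPM, with a mean of 31.3 ± 3.87 TPM (SD, n = 3). Replicate 1 was lowest and the other 2 libraries lay close together. This level was above 66.6% of the 15452 protein-coding genes that had a length and a count, whose median was 13.1 TPM.

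Gjc1 (Cx45), the other neuronal connexin, was at the bottom of the set. It had 8, 24 and 10 counts, with exact Poisson 95% intervals of 3.45 to 15.8, 15.4 to 35.7 and 4.80 to 18.4 that cover counting error only. Its levels were 0.581, 1.71 and 0.693 TPM, with a mean of 0.993 ± 0.620 TPM. Replicate 2 was the highest library, and the coefficient of variation of 62.4% was far above the 12.4% of Gjd2.

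**Figure D1:**
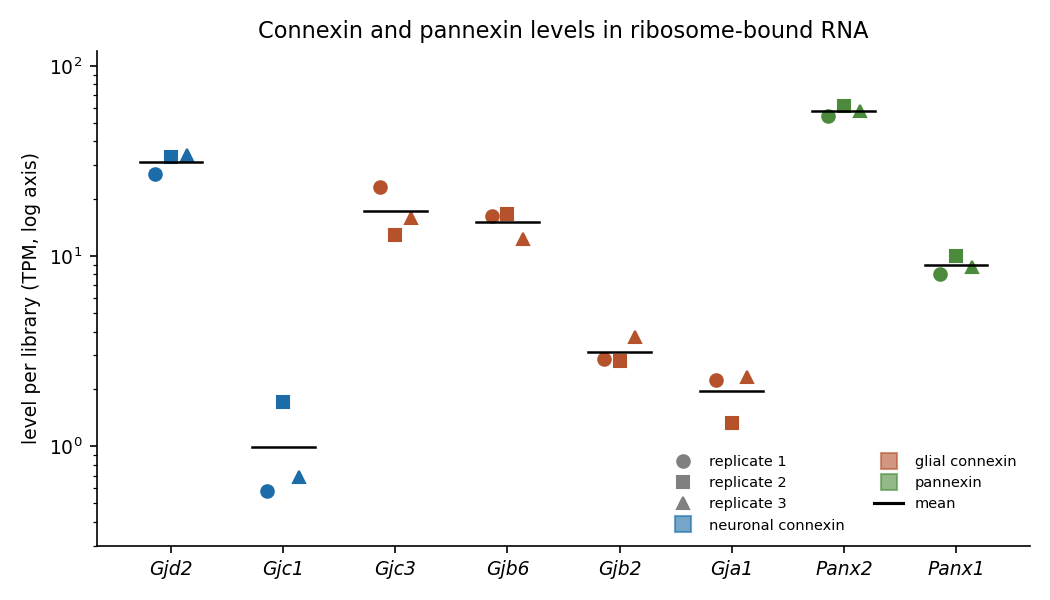
Level of each gene in each library in TPM on a log axis; symbols mark the replicates, horizontal lines the mean of 3 libraries, and colours the neuronal connexins, glial connexins and pannexins. Panx2 and Gjd2 lie at the top in every library, with means of 57.9 and 31.3 TPM, and Gjc1 has the lowest mean, 0.993 TPM.

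The glial connexins fell into an upper and a lower pair. Gjc3 (Cx29), which oligodendrocytes place in myelin, had 278, 157 and 199 counts and 23.2, 12.8 and 15.8 TPM, with a mean of 17.3 ± 5.33 TPM. Gjb6 had 119, 125 and 95 counts and 16.2, 16.6 and 12.3 TPM, with a mean of 15.0 ± 2.37 TPM. The 2 genes overlapped: Gjc3 was above Gjb6 in 2 of 3 libraries, by 0.17 on average on the scale of log2(TPM + 0.1) with an SD of 0.48.

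In the lower pair, Gjb2 (Cx26), a connexin of astrocytes and of the meninges, had 19, 19 and 26 counts and 2.87, 2.81 and 3.75 TPM, with a mean of 3.14 ± 0.524 TPM. Gja1, the main connexin of astrocytes, had 63, 38 and 68 counts and 2.23, 1.32 and 2.30 TPM, with a mean of 1.95 ± 0.547 TPM. Only 24.5% of protein-coding genes lay below Gja1, against 55.0% below Gjc3 and 52.3% below Gjb6.

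Differences between genes were taken within each library on the scale of log2(TPM + 0.1) and tested with limma for all 16645 genes other than the reference gene. Adjusted p-values are given as a pair: first from limma fitted to the differences, then from a fit in which the spreads of the gene and of the reference were estimated separately and added. A difference is called where both are below 0.05. For alternative settings, such as another gene length or a left-out library, only the first p-value was computed, and a call there rests on it alone. Against Gjd2, 62.7% of all genes were called lower and 25.5% higher (63.5% and 26.2% by the first p-value alone), and the median gene was lower by 1.51 on the log2 scale. Of the other 7 genes of the set, 6 were called lower and Panx2 higher.

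Between the neuronal connexins, Gjd2 was 31.5-fold higher than Gjc1. The difference in log2(TPM + 0.1) was 4.98 with an SD of 0.68, in the same direction in 3 of 3 libraries, and the limma adjusted p-values were 1.09e-06 and 3.35e-05. The fold depended on the scale: it was 15.1 with the length of the principal transcript, 16.6 with a pseudocount of 1 and 18.1 without a length correction, with the direction unchanged in each.

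All 4 glial connexins were called lower than Gjd2. Gja1 was 15.7-fold lower, at -3.97 in log2(TPM + 0.1) (SD 0.52; limma adjusted p = 1.09e-06 and 2.19e-05). Gjb2 was 9.72-fold lower, at -3.28 (SD 0.20; limma adjusted p = 1.09e-06 and 1.50e-05). The Gja1 fold was 5.01 with the length of the principal transcript and 4.53 without a length correction. Both differences were larger than their SD between libraries and had the same sign in 3 of 3 libraries.

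Gjb6 and Gjc3 lay closer to Gjd2. Gjb6 was 2.08-fold lower, at -1.06 on the log2 scale (SD 0.37; limma adjusted p = 0.000335 and 0.000367), and Gjc3 1.85-fold lower, at -0.89 (SD 0.60; limma adjusted p = 0.00264 and 0.00362). Both were below Gjd2 in 3 of 3 libraries. Without pooling of the spread over genes, neither was called, with limma adjusted p-values of 0.0505 for Gjb6 and 0.141 for Gjc3. The Gjc3 call was also lost without replicate 2 (-0.65, limma adjusted p = 0.0513) and without a length correction (-0.29, limma adjusted p = 0.170).

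**Figure D2:**
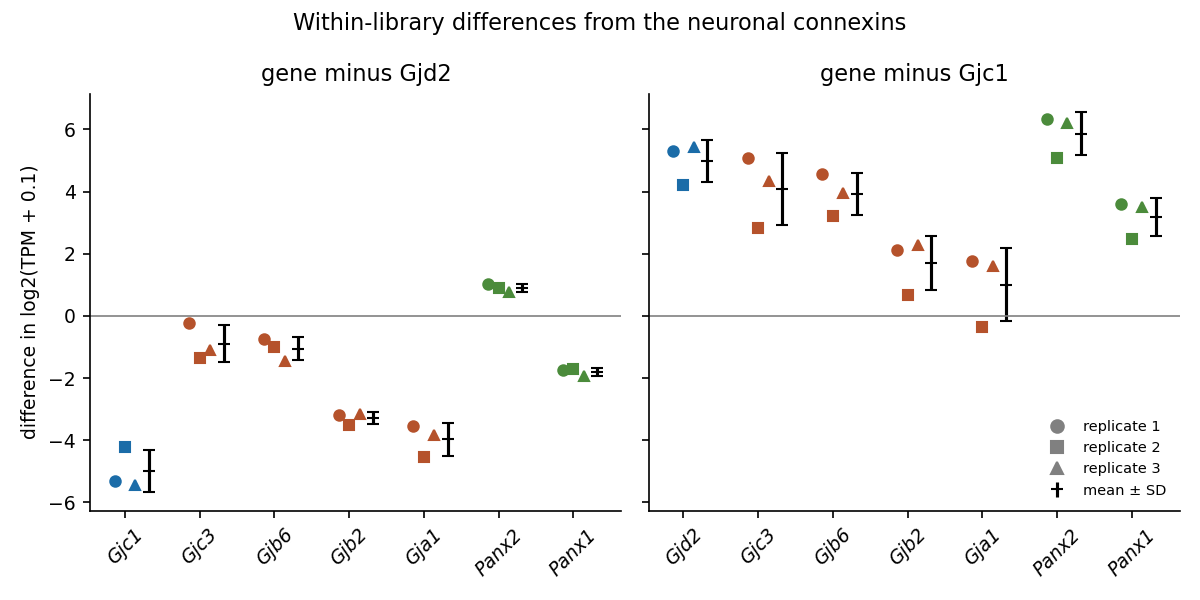
Difference in log2(TPM + 0.1) of each gene from Gjd2 (left) and from Gjc1 (right) within each library; symbols mark replicates, and black bars give the mean ± SD of 3 libraries. Against Gjd2 every gene except Panx2 lies below 0 in all 3 libraries, and against Gjc1 only Gja1 crosses 0, in replicate 2.

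Gjc1 sat among or below the glial connexins. Against it, 68.6% of all genes were called higher and 10.1% lower (68.8% and 13% by the first p-value alone), so that a gene above Gjc1 is the usual case in these libraries. Gjc3 was 17.0-fold higher than Gjc1, by 4.09 on the log2 scale (SD 1.15; limma adjusted p = 1.82e-11 and 7.21e-05). Gjb6 was 15.1-fold higher, by 3.92 (SD 0.68; limma adjusted p = 1.78e-10 and 0.000114). Both were above Gjc1 in 3 of 3 libraries. Without pooling of the spread over genes, the limma adjusted p-values were 0.0422 for Gjc3 and 0.0240 for Gjb6. With the length of the principal transcript the folds were 8.87 for Gjc3 and 9.20 for Gjb6, and without replicate 2 the Gjc3 fold was 26.2.

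The lower glial pair was not clearly separated from Gjc1. Gjb2 was called higher by 1.70 (SD 0.88; limma adjusted p = 0.0184 and 0.0152), above Gjc1 in 3 of 3 libraries. That call was lost without pooling of the spread (limma adjusted p = 0.106), without replicate 1 (1.48, limma adjusted p = 0.205) or replicate 3 (1.41, limma adjusted p = 0.227), and with lengths of single transcripts (0.66 with the principal transcript). Gja1 differed from Gjc1 by 1.01 with an SD of 1.18, was higher in 2 of 3 libraries and was not called (limma adjusted p = 0.182 and 0.132). Without replicate 2, the library in which Gjc1 had its highest and Gja1 its lowest count, the difference was 1.69 and passed the threshold by the first p-value (limma adjusted p = 0.00260). With each other treatment of length, Gja1 was above Gjc1 in 3 of 3 libraries and also passed by the first p-value. The difference was 1.83 with the longest transcript, 1.59 with the principal one and 2.002 without a length correction (limma adjusted p = 0.00965, 0.0257 and 0.00231).

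Among the glial connexins, Gja1 served as the reference; 63.8% of all genes were called higher than it and 18.3% lower (64.7% and 20.7% by the first p-value alone). Gjc3 was 8.46-fold higher, by 3.08 on the log2 scale (SD 0.31; limma adjusted p = 6.73e-15 and 4.35e-05). Gjb6 was 7.53-fold higher, by 2.91 (SD 0.60; limma adjusted p = 3.85e-13 and 8.19e-05). The limma adjusted p-values without pooling of the spread over genes were 0.0137 for Gjc3 and 0.0268 for Gjb6. Gjb2 was above Gja1 by 0.69 (SD 0.34) in 3 of 3 libraries, which was not called (limma adjusted p = 0.183 and 0.173).

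The place of Gja1 rested on the length assigned to it. Its 8 annotated transcripts merge to 10257 bases of exon, whereas the longest transcript has 3889 and the principal one 3182. With the length of the principal transcript, the level of Gja1 was 4.10 ± 1.16 TPM in place of 1.95 ± 0.547, and that of Gjb2 was 2.05 ± 0.344 TPM. The order of Gjb2 and Gja1 was then reversed, with Gjb2 minus Gja1 at -0.94 on the log2 scale, which was not called (limma adjusted p = 0.0858). In counts scaled to library size only (CPM) the difference was -1.32 and passed the threshold by the first p-value (limma adjusted p = 0.0149). Gjb6 and Gjc3 were above Gja1 by 1.61 and 1.56 on the log2 scale with the principal transcript, so that the gap to the upper pair shrank but kept its sign. Gjd2 minus Gja1 was then 2.32 in place of 3.97.

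**Figure D3:**
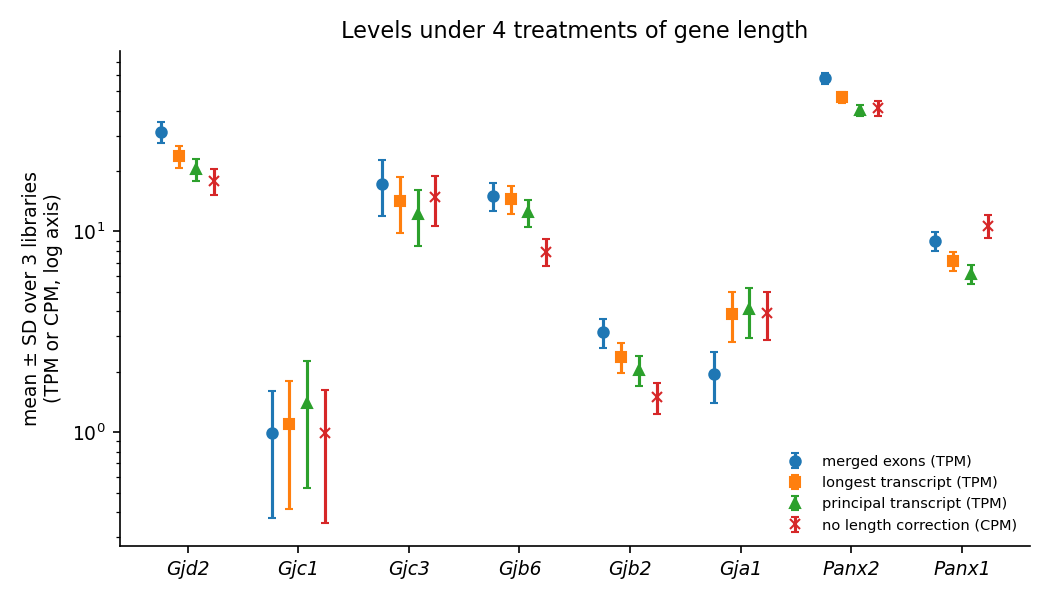
Mean ± SD over 3 libraries of each gene's level with merged exons, the longest transcript or the principal transcript as its length (TPM), and with no length correction (CPM), on a log axis. Gja1 moves from 1.95 TPM with merged exons to 4.10 TPM with the principal transcript, past Gjb2, while Gjc1 stays low at 0.993 and 1.40 TPM.

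Summed by class over merged exons, the neuronal and glial connexins were of similar size in 2 of the 3 libraries. Gjd2 and Gjc1 together reached 27.5, 34.8 and 34.6 TPM in replicates 1, 2 and 3, and the 4 glial connexins 44.4, 33.6 and 34.2 TPM. The ratio of the neuronal to the glial sum was 0.618 in replicate 1 and 1.04 and 1.01 in replicates 2 and 3. With other lengths the glial sum was the larger in all 3 libraries: the ratio was 0.504, 0.873 and 0.805 with the principal transcript, and 0.461, 0.861 and 0.753 without a length correction. Replicate 1 had both the lowest Gjd2 and the highest Gjc3 of the 3 libraries.

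As a share of all connexin TPM, Gjd2 made up 34.9%, 47.5% and 47.0% and was the largest contributor in each library. Gjc3 contributed 30.1%, 18.4% and 21.9%, and Gjb6 21.0%, 23.9% and 17.0%. Gjc1 contributed between 0.754% and 2.45%, and Gja1 between 1.89% and 3.18%. With the length of the principal transcript, the Gja1 share was 8.07%, 5.29% and 8.92%, and the Gjd2 share 30.2%, 41.2% and 40.9%.

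The counts of the 3 libraries were also compared with what their sizes predict, by a chi-square test per gene with Benjamini-Hochberg adjustment. Variation beyond counting error was called for 74.3% of the 12949 genes tested. Gjc3 (chi-square 43.4, adjusted p = 1.51e-09) and Gja1 (8.94, adjusted p = 0.0169) were called. The Gjc3 call was lost without replicate 1 (adjusted p = 0.119) and the Gja1 call without replicate 2 (adjusted p = 0.975), the libraries in which they were highest and lowest. The other 5 genes tested were not called: Gjb6 had an adjusted p of 0.0512, Gjd2 of 0.0651, Panx1 of 0.223, Panx2 of 0.224 and Gjb2 of 0.628. Calls were gained under some settings: for Gjd2 with total gene counts as library sizes (adjusted p = 0.00617) and without replicate 2 (adjusted p = 0.0476), and for Panx2 with total gene counts (adjusted p = 0.0196). Gjb6 was called with DESeq2 size factors (adjusted p = 0.0441), without replicate 1 (adjusted p = 0.0494) and without replicate 2 (adjusted p = 0.0400). Gjc1 was below the minimum of 1 CPM. With genes of a mean count of at least 5 tested instead, its chi-square was 10.8 (adjusted p = 0.00764).

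Summed markers of oligodendrocytes and Gjc3 were highest in the same library. The 11 markers reached 443, 307 and 260 TPM in replicates 1, 2 and 3, while Gjc3 was lowest in replicate 2 and the marker sum in replicate 3. The myelin genes Cnp (136, 93.3 and 78.2 TPM) and Mog (22.8, 6.47 and 7.93 TPM) had the same high library, whereas Mbp was level at 37.5, 37.1 and 37.4 TPM. Of the 11 markers, only Opalin was at 0 in any library, replicate 3. The part of oligodendrocyte RNA in the Gjc3 level was not tested.

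Astrocyte markers were present in every library. Their 11 genes summed to 2574, 2139 and 2074 TPM, none at 0, with Atp1b2, Glul and Slc1a2 highest. In replicate 2, where Gja1 had its lowest level, the astrocyte sum was between those of the other 2 libraries. Against Gja1, 10 of the 11 markers were called higher and none lower, beside 63.8% and 18.3% of all genes; the exception was Aldh1l1, an astrocyte enzyme, at 0.77 on the log2 scale (SD 0.71; limma adjusted p = 0.130 and 0.129). The lowest called was Fgfr3, at 1.02 (SD 0.35; limma adjusted p = 0.0384 and 0.0455), a call lost without any 1 of the 3 libraries. With the principal transcript as length, 8 of 11 passed as higher by the first p-value, beside 9233 of all 16645 genes tested. The median level of the list, 18.2 ± 1.83 TPM over merged exons, was close to that of Gjb6 and Gjc3. The part of astrocyte RNA in the levels of Gja1, Gjb2 and Gjb6 was not tested.

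**Figure D4:**
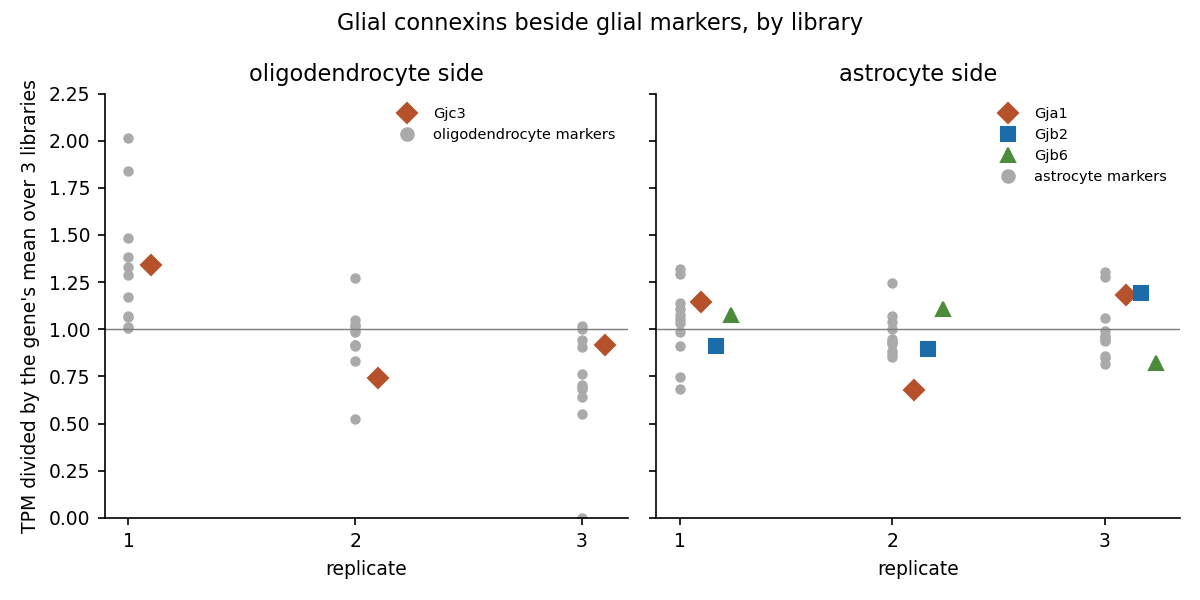
TPM of each gene divided by its own mean over 3 libraries, by replicate, for Gjc3 beside 11 oligodendrocyte markers (left) and for Gja1, Gjb2 and Gjb6 beside 11 astrocyte markers (right). Gjc3 and most of the oligodendrocyte markers are highest in replicate 1, and Gja1 is lowest in replicate 2.

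Meningeal cells also express Gja1, Gjb2 and Gjb6. The 8 meningeal markers summed to 22.5, 19.0 and 23.1 TPM, led by Igf2, Dcn and Col1a1, with Slc47a1 at 0 in every library. Both the meningeal sum and Gjb2 were highest in replicate 3, whereas the median of the markers was highest in replicate 1 (1.55, 0.597 and 1.43 TPM). Variation of the Gjb2 counts beyond counting error was not called (chi-square adjusted p = 0.628). The part of meningeal RNA in the Gjb2 level was not tested.

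Panx2 was the most abundant of the 8 genes. It encodes a pannexin found largely in the brain and located mostly on intracellular membranes. It had 539, 621 and 600 counts and 54.4, 61.4 and 57.8 TPM, with a mean of 57.9 ± 3.50 TPM and the smallest coefficient of variation of the set, 6.04%. Of protein-coding genes, 78.3% lay below it. Panx2 was 1.85-fold higher than Gjd2, by 0.89 on the log2 scale (SD 0.12; limma adjusted p = 7.32e-05 and 0.000205), in 3 of 3 libraries.

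Panx1 was far lower. It had 134, 170 and 153 counts and 8.07, 10.03 and 8.79 TPM, with a mean of 8.97 ± 0.991 TPM. Panx1 minus Panx2 was -2.68 on the log2 scale with an SD of 0.07, a 6.41-fold difference that was nearly the same in each library (limma adjusted p = 3.31e-06 and 2.23e-06). Against Panx2, 75.4% of all genes were called lower and 16.4% higher (76% and 16.9% by the first p-value alone). Panx1 was also 3.46-fold lower than Gjd2, at -1.79 (SD 0.13; limma adjusted p = 6.34e-06 and 2.24e-05), and it lay above Gjb2, Gja1 and Gjc1 in all 3 libraries. Without a length correction, Panx1 was 3.84-fold lower than Panx2 and 1.66-fold lower than Gjd2.

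In descending order of mean level the genes were thus Panx2, Gjd2, Gjc3, Gjb6, Panx1, Gjb2, Gja1 and Gjc1. Of neighbours in this order, Gjc3 and Gjb6 crossed between libraries, as did Gja1 and Gjc1. Gjb6 was above Panx1 by 0.73 (SD 0.26) and Panx1 above Gjb2 by 1.49 (SD 0.30), each in 3 of 3 libraries. Without a length correction, Gjb6 was below Panx1 in 3 of 3 libraries, by -0.43 on the log2 scale (SD 0.26).

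The rest of the connexin family had few counts or none. Of 20 connexin genes measured, 8 had a count in every library, the 6 described above among them. Gja6 had 5, 3 and 1 counts, or 0.534 ± 0.364 TPM.

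In addition, 5 connexins had counts in 1 or 2 libraries only. Gja4 (Cx37), a connexin of vessel walls, had 13 counts in replicate 1 and 0 in the others. The 8 endothelial markers, led by Ly6c1, Flt1 and Slco1a4, summed to 7.94, 4.73 and 4.78 TPM, with 2, 0 and 1 of them at 0. Their part in the Gja4 counts was not tested. Gja3 (Cx46), best known from the lens, had 1, 0 and 17 counts. Gja10 had 2 counts in replicate 3, and Gjb1 (Cx32), a myelin connexin, and Gjd4 had 1 and 2 counts in replicate 1.

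Panx3 and 7 connexins, among them Gja5, Gjb5, Gjd3 and Gje1, were at 0 counts in all 3 libraries. A count of 0 allows up to 3 counts per library, or 0.209, 0.215 and 0.207 CPM in replicates 1, 2 and 3.

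Proteins that bind or modify connexins were mostly above Gjd2. Of 16 such genes, 12 were called higher than Gjd2, 3 lower and 1 not called, beside 25.5% and 62.7% of all genes. The list's median level was 126.7 ± 23.3 TPM. Tjp1, which encodes the scaffold ZO-1 found at electrical synapses, was at 123 ± 24.0 TPM, 1.96 above Gjd2 on the log2 scale (SD 0.46; limma adjusted p = 6.27e-07 and 7.62e-07). Among the highest were Camk2a, a calcium-dependent kinase of a family known to bind Gjd2 protein, at 2546 ± 302 TPM, and Prkaca, the catalytic subunit of protein kinase A, at 1003 ± 302 TPM. These levels belong to the captured RNA as a whole, which also held excitatory markers, and which cells hold each transcript was not tested.

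The 3 genes called lower included Cav1, the membrane protein caveolin, at 8.47 ± 2.26 TPM, and the kinase gene Src at 20.6 ± 1.09 TPM. Cav1 minus Gjd2 was -1.90 on the log2 scale (SD 0.44; limma adjusted p = 9.65e-06 and 4.33e-05). Mpdz, a multi-domain scaffold, was at 28.9 ± 4.02 TPM and was not called (-0.12, limma adjusted p = 0.549 and 0.548). Without a length correction Mpdz was above Gjd2, by 1.99 on the log2 scale (limma adjusted p = 5.05e-22), and with the principal transcript by 0.61 (limma adjusted p = 0.00537); without replicate 1 it was below Gjd2, at -0.33 (limma adjusted p = 0.0308). The Src call was lost without replicate 2 (-0.52, limma adjusted p = 0.120) or replicate 3 (-0.53, limma adjusted p = 0.0656) and without a length correction (0.0038, limma adjusted p = 0.985). The alternatives run for this list gave between 11 and 13 genes higher and between 2 and 4 lower. Over all genes these alternatives gave between 3615 and 5835 higher than Gjd2 and between 6380 and 10597 lower. The value of 6380 came with the filter of at least 1 CPM, which tests fewer genes.

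Partners of pannexins were set against Panx2. Of 8 genes, 3 were called higher and 5 lower, beside 16.4% and 75.4% of all genes. Higher were Dpysl2 (729 ± 62.5 TPM), a cytoskeletal regulator of neurites, Actr3 (199 ± 42.0 TPM), a subunit of the actin-nucleating complex, and Grin1 (102 ± 16.5 TPM), the obligatory subunit of NMDA receptors. Among those lower were the ATP-gated channels P2rx7 (1.89 ± 0.975 TPM) and P2rx4 (1.89 ± 0.151 TPM), and Stoml3, with 0, 7 and 0 counts.

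**Figure D5:**
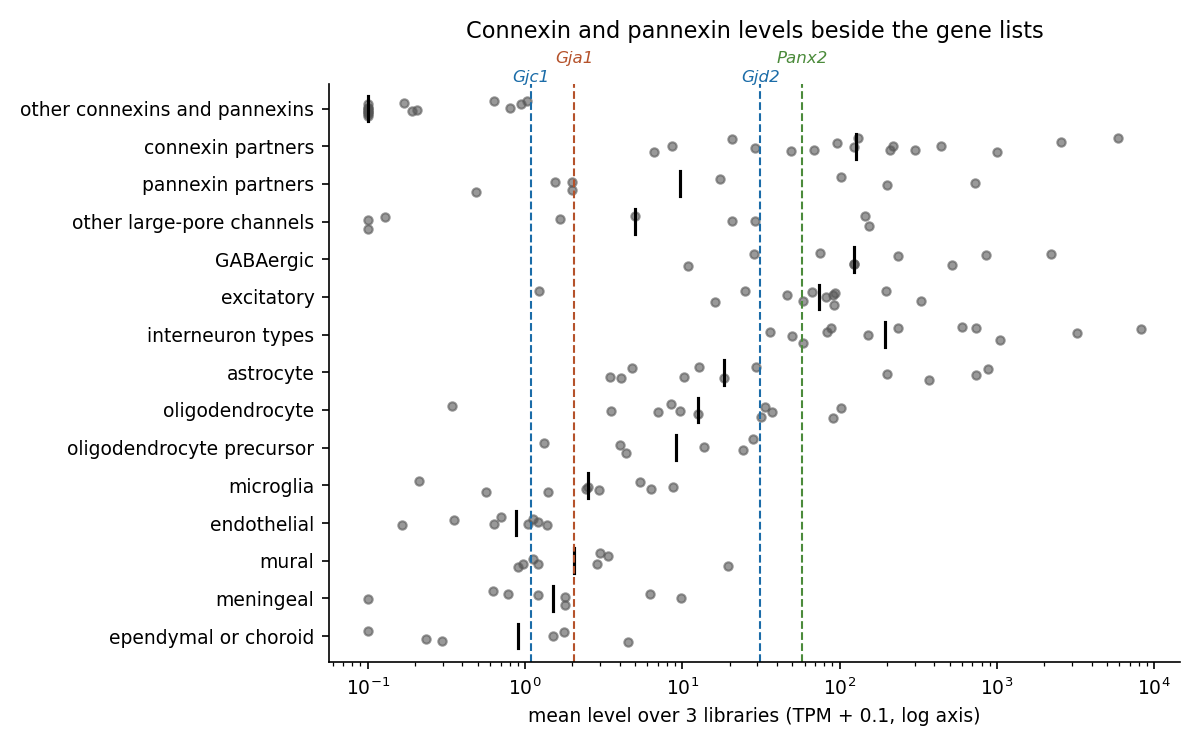
Mean level over 3 libraries of every gene of each list (TPM + 0.1, log axis); grey points are genes, black bars the list's median, and dashed lines the levels of Gjc1, Gja1, Gjd2 and Panx2. Most connexin partners lie to the right of Gjd2, at 31.3 TPM, most other connexins sit at the left edge, and the astrocyte markers lie to the right of Gja1.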

How the data were processed

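Per the labels' protocols, ribosome-bound RNA was immunopurified with anti-EGFP antibodies. Each deposited table gives unnormalized read counts by gene symbol. The submitters' processing notes name STAR 2.0.0e, HTSeq and mm10. For the annotation, counting mode and strand setting the entry is: not given in the sources used here. Overlapping or antisense genes cannot be told apart. Lines that name no gene were left out: 11.8%, 11.0% and 13.1% of records in replicates 1, 2 and 3 fell on no feature, 2.49%, 2.83% and 2.68% were ambiguous and 11.2%, 11.3% and 13.1% had no unique alignment.

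Exon lengths came from GENCODE M21 (GRCm38). Lengths were found for 23155 symbols directly and for 727 through older names, and 8649 stayed without one. The genes with lengths carried 96.9%, 97.0% and 94.6% of counts. TPM was computed from these. Overlaps used bedtools 2.31.1.

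Every gene minus a reference gene (Gjd2, Gjc1, Gja1 or Panx2) was tested on log2(TPM + 0.1) with limma 3.58.1 (intercept only, moderated with a trend, two-sided, Benjamini-Hochberg adjustment, threshold 0.05). Tested on simulated data, this fit called more genes without a difference for Gjd2 (13.75%) than for the other references (5.02% to 5.79%). A fit with separately estimated and summed spreads was added after seeing this, and calls require both. It lowered that share for each reference, to 9.6% for Gjd2 and to between 2.9% and 4.1% for the others. The share for Gjd2 was still the highest, so small differences from Gjd2 are to be read with caution. Such caution applies most where only the first p-value was computed. Genes simulated together shared 1 drawn reference, so their tests were not independent, and whether the references truly differ was not tested. A simulated log2 difference of 1 was called by the added fit in 89.25% of tests against Gjd2 and 53.2% against Gjc1. Variation between libraries used library sizes scaled by edgeR 4.0.16 (trimmed mean of M-values), for genes of at least 1 CPM, with DESeq2 1.42.0 size factors as an alternative. Tests ran in R 4.3.3. Tables were handled in Python 3.11.15 (NumPy 2.4.6, pandas 2.3.3) with intervals from SciPy 1.17.1, and plots were drawn with matplotlib 3.10.9. The intervals and the floor of 3 counts cover counting error only.

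The members and lists were chosen with earlier results of these data known. Named besides the 8 genes were the other connexins and pannexins, the highest, lowest and most different genes of the partner and channel lists, the highest and lowest markers, and the 3 protein-coding genes nearest in level to each reference. Mog, Mbp, Fgfr3, Slc17a7, Htr3a and Mpdz, Src, Cav1, P2rx4 and P2rx7 were added after their values were seen. Some list genes are not reported here. Alternatives were other lengths, pseudocounts, filters, spreads and leaving out each library.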

Additional observations from a re-analysis of the deposited data

How the results depend on the processing

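No paired analysis was possible because all 3 libraries belong to 1 group. Of 179 alternative values for 15 differences between pairs of the 8 genes, 162 kept their direction and their side of the threshold, 10 lost a call, 4 gained one and 3 reversed. Gjb2 minus Gja1 reversed to -1.32 without a length correction, -0.66 with the longest and -0.94 with the principal transcript. Gjb6 minus Panx1, a comparison of lengths added after seeing the data, reversed to -0.43 without a length correction. In the same added comparison, Gjc3 minus Gjb6 reversed to -0.05 with the longest or the principal transcript. Gjb2 minus Gjc1 lost its call at 0.69, 1.18 and 0.66 under these settings and at 1.70 without moderation; leaving out a library gave 1.41 to 2.20. Gja1 minus Gjc1 gained one at 2.002, 1.83 and 1.59, and leaving out a library gave 0.62 to 1.69. Without moderation Gjb6 minus Gjd2 (-1.06) and Gjc3 minus Gjd2 (-0.89) lost their calls. Gjc3 minus Gjd2 lost it also at -0.29 without a length correction, and leaving out a library gave -1.23 to -0.65. Gjc1 was filtered out at 1 CPM, so that setting gave no value for Gjc1 minus Gjd2. As a reference Gjc1 was kept in that setting.

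Counts of genes called higher stayed within 1.5 times under the alternatives run, and counts called lower did not under all of them. With a mean of at least 1 CPM, which removes low genes from the test, 6380 in place of 10569 were lower than Gjd2, 1 in place of 2172 lower than Gjc1, 128 in place of 3443 lower than Gja1 and 8427 in place of 12651 lower than Panx2. Without moderation 598 were lower than Gjc1 and 1243 lower than Gja1. Leaving out a library gave 0 to 1380 lower than Gjc1 (0 without replicate 2, 1380 without replicate 1), 2113 to 2681 lower than Gja1 and 5542 to 8071 in place of 9620 genes with variation between libraries. Where no value above shows the cause of a change, the cause was not tested. With under 30 counts per library, Gjc1 and Gjb2 are limited by depth.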

Other observations

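Other large-pore channels spanned a wider range than the connexins. The volume-regulated anion channel subunits Lrrc8a, which is obligatory for that channel, and Lrrc8b were at 155 ± 22.8 and 144 ± 25 TPM (mean ± SD, n = 3), above Gjd2 by 2.30 and 2.19 on the log2 scale (limma adjusted p = 7.51e-08 and 9.58e-08 for Lrrc8a, 1.56e-07 and 1.77e-07 for Lrrc8b). Exons of Lrrc8a are overlapped by other genes over 68.3% of their length, so its counts are uncertain. Lrrc8d, at 28.8 ± 3.34 TPM, was not called against Gjd2. Lrrc8c (20.5 ± 5.31 TPM), the calcium homeostasis modulator family genes Fam26e (4.88 ± 1.48 TPM) and Calhm2 (1.58 ± 0.544 TPM), and Lrrc8e, with 0, 1 and 0 counts, were called lower. The order of Lrrc8c and Lrrc8d against Gjd2 depended on length: without a length correction both were above Gjd2, by 0.76 (limma adjusted p = 3.64e-05) and 2.001 (limma adjusted p = 2.64e-22), and with the principal transcript Lrrc8d was above it by 1.55 (limma adjusted p = 4.69e-07). The Lrrc8c call was lost without replicate 3 (-0.35, limma adjusted p = 0.219), and Lrrc8d was called lower without replicate 1 (-0.32, limma adjusted p = 0.0380). Calhm1 and Fam26f were at 0 counts in every library.

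The protein-coding genes nearest to Gjd2 in level over the 3 libraries were Stk38l, Ddhd2 and Garem, with root mean square distances of 0.0190, 0.0235 and 0.0442 in log2(TPM + 0.1). Nearest to Panx2 were Rwdd1, Ago1 and Stk4 (0.0322, 0.0341 and 0.0360), and nearest to Gja1 were Atp10a, Cfap43 and Gm765 (0.0401, 0.0843 and 0.125). For the sparse Gjc1 the nearest included Cbx8 and Smpd2, at distances of 0.122 and 0.146. These lists describe levels in 3 libraries and nothing else.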
